A study of Mus musculus with 19 samples.

Results

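Kinesins are motor proteins that use ATP to work on microtubules. A first set builds and moves the spindle, moves chromosomes and completes cytokinesis, so its transcripts are abundant in dividing cells. A further set carries vesicles, mitochondria and other cargo, and the most abundant of these motors in brain serve axons and dendrites; others work inside the primary cilium, the organelle through which cells receive hedgehog signals. The deposited tables hold 38 genes whose symbol is Kif followed by a number. Of these, 32 reached 1 FPKM (mapped fragments divided by transcript length and by the total of the library) in at least 3 of the 19 libraries and are described here. The same level was reached by 14591 of the 22193 genes in the tables.

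The libraries were made from cerebellum RNA of C57BL/6 mice at postnatal day 60, 1 mouse for each library. Wild-type animals (Ctrl) gave 3 libraries, the conditional Gsa knockout by Olig1Cre (Olig1-Gnas) 8, and that by hGFAPCre (hGFAP-Gnas) 8. Gnas encodes Gsα, which couples receptors to adenylyl cyclase and cAMP, and the title of the series places it in medulloblastoma driven by Sonic hedgehog. Olig1 is a transcription factor of the oligodendrocyte lineage, and hGFAP stands for the human GFAP promoter, which acts in astrocytes and in neural progenitors. The labels do not say in which cells either Cre had acted, and the name of the deposited hGFAP-Gnas values carries the word tumor. In bulk tissue, fewer cells of a type and less RNA in each cell cannot be told apart, and p-values measure the spread between these mice.

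Gnas was listed at 651, 798 and 0 FPKM in Ctrl 1 to 3, at 0 to 122 in Olig1-Gnas with a median of 28.7, and at 0 in 7 of 8 hGFAP-Gnas libraries, with 40.9 in hGFAP-Gnas 5. Because a Ctrl library is also listed at 0, the targeted gene checks the labels only in part. Depth in reads is unknown. On a relative scale read from the steps among the lowest values, 10 libraries (Ctrl 1 and 2, Olig1-Gnas 5 to 8, hGFAP-Gnas 1 to 4) lay at 0.841 to 1.06 and the other 9 at 0.27 to 0.432. The library labelled hGFAP-Gnas 1 stood apart from its group. The summed FPKM of 4 markers of dividing cells (Mki67, Top2a, Ccnb1 and Cdk1) was 8.47 in it, against 172 to 472 in the other 7 hGFAP-Gnas libraries and 0.802 to 1.33 in Ctrl. It lay within the Ctrl range for 10 of the 32 kinesins, while the other 15 knockout libraries did so for 1 to 6. Counts of called kinesins, the folds that rest on it and the counts of the partner lists are therefore also given without it.

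The promoters of the division kinesins are shown first because the motors of the spindle moved together in what follows, and genes of the late cell cycle often carry a short element known as the CHR (cell cycle genes homology region), with the letters TTTGAA, and the letters CCAAT, to which NF-Y binds. RefSeq sequence of GRCm38.p6 from 250 bases before to 50 bases after the start held a window for 27 of the 32 kinesins. Both strands were searched, and matches of the motifs did not overlap in the stretches shown. Below are the 100 bases before the start, 5′ to 3′ along the gene, with the matched letters of either motif on either strand in capitals, for 3 kinesins of division, for Kif26b and for Kif5c, both of which were lower in the knockouts.
Kif11: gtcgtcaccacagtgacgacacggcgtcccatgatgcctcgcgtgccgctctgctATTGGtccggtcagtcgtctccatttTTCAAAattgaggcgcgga
Kif15: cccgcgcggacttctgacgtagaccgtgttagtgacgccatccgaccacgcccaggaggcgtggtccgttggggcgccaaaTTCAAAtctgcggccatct
Kif18b: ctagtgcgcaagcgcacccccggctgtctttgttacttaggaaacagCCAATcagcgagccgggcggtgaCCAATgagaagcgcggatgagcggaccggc
Kif26b: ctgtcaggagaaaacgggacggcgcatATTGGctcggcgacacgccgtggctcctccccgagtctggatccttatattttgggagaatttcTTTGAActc
Kif5c: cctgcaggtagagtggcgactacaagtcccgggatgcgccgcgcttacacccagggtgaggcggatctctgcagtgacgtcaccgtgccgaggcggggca
These stretches lie at chr19:37376282-37376381 on the plus strand for Kif11, chr9:122950981-122951080 on the plus strand for Kif15, chr11:102925125-102925224 on the minus strand for Kif18b, chr1:178529025-178529124 on the plus strand for Kif26b and chr2:49619186-49619285 on the plus strand for Kif5c. In Kif11 and in Kif15 the CHR letters sat on the reverse strand, 19 bases before the start in both, and Kif15 had a further match 234 bases before it. Kif11 also had CCAAT letters on the reverse strand 45 bases before the start. Kif18b had CCAAT letters 53 and 30 bases before the start, and its CHR letters begin at the base numbered 4 after it, outside the stretch shown. Kif26b, which is no division motor, had the CHR letters 9 bases before its start, and Kif5c had neither motif in its window.

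Over the whole windows, the CHR letters occurred in 9 of 11 kinesins of division (81.8%), in 2 of 16 other kinesins (12.5%, Kif1a and Kif26b) and in 20.2% of the 27025 genes with a window. Division kinesins without them were Kif18a and Kif24. CCAAT letters occurred in 63.6% of the division kinesins, 4 of 16 others and 41.1% of all genes, and both motifs together in 54.5%, 6.25% and 7.97%. Without the windows whose start lies more than 1000 bases inside the gene, the CHR share was 7 of 9 division kinesins (77.8%) and 2 of 14 others (14.3%). A match is a match of letters only, and binding at these windows was not measured. The division set was drawn up with earlier results of these data known, so its contrast with the other kinesins is no test.

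**Figure D1:**
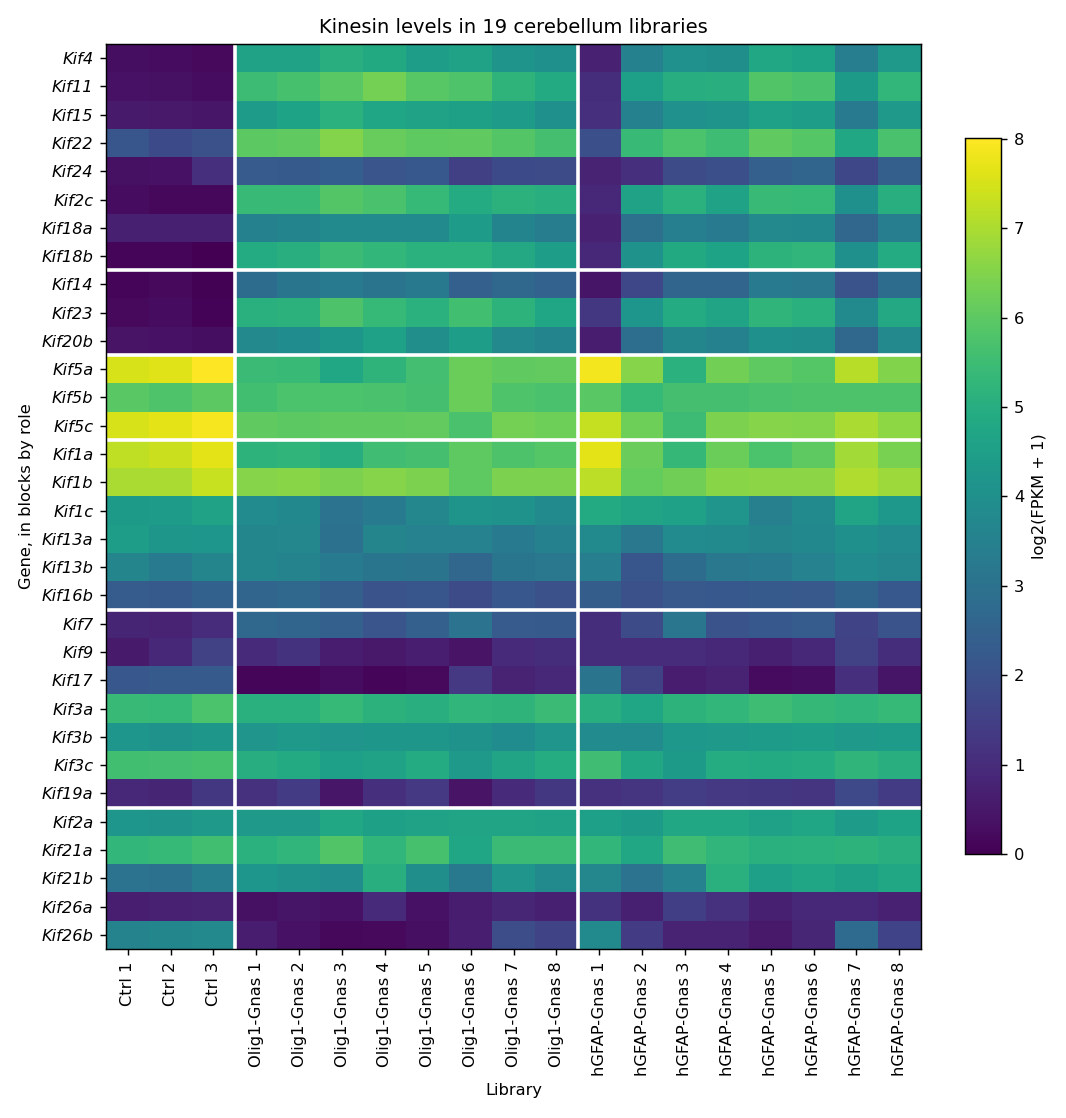
Level of the 32 kinesins as log2(FPKM + 1) (color), with genes in rows, in blocks by role, and the 19 libraries in columns by group. The spindle and cytokinesis rows are dark in the 3 Ctrl libraries, Kif22 the least so, and brighter in the knockouts except hGFAP-Gnas 1, while Kif5a, Kif5c and Kif1a are brightest in Ctrl and in hGFAP-Gnas 1.

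Groups were compared with limma on log2(FPKM + 1), and a gene was called where the p adjusted over all genes (Benjamini-Hochberg) was under 0.05. In Olig1-Gnas against Ctrl, 14 of 31 tested kinesins were higher (45.2%, against 36.2% of all 14183 genes tested), 9 were lower (29%, against 23.6%) and 8 were not called, where 59.8% of all genes were called in either direction. All 8 Olig1-Gnas libraries lay above all 3 Ctrl libraries for 12 kinesins (32.2% of all genes) and below for 9 (21.5% of all genes). As 1 set, 23 of the 31 kinesins were thus called in either direction, against 59.8% of all genes. Their median log2 fold was -0.02, against 0.22 over all genes. By role, the 11 kinesins of division that passed the filter were called higher, with folds from 1.44 to 5.32, and of the other 20 tested, 3 were higher and 9 lower. Roles were assigned with earlier results of these data known, so this split is a description and not a test. Kif24, a centriole motor, was counted with division, and Kif2a, which also has a role in spindles, was not. The filter also bears on the count of division kinesins. Of 14 division kinesins listed, 9 were under 1 FPKM in all Ctrl libraries and 1, Kif24, reached it in a single one, so these 10 passed through the knockouts, where a higher level is in part a consequence of the filter; only Kif22 passed in Ctrl as well. The other 3, Kif2b, Kif4b and Kif20a, did not reach 1 FPKM in any library and were not tested. Of all genes, 5134 were higher and 3351 lower, against 4315 and 3983 after scaling to the upper quartile and 4231 and 4125 after quantile normalization.

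In hGFAP-Gnas against Ctrl, 14 of 32 kinesins were higher (43.8%, against 26.1% of all 14305 genes), 6 were lower (18.8%, against 12.8%) and 12 were not called, where 38.9% of all genes were called. All 8 libraries lay above Ctrl for 11 kinesins (15.2% of all genes) and below it for 3, Kif5c, Kif3c and Kif13a (8.56% of all genes). The 11 kinesins of division that passed the filter were called higher here too, with folds from 1.25 to 4.27, or 1.41 to 4.77 without hGFAP-Gnas 1. Of all genes, 3738 were higher and 1832 lower, against 3200 and 2312 after upper quartile scaling and 2614 and 2718 after quantile normalization. Without hGFAP-Gnas 1 the counts of kinesins were 14 higher and 8 lower, where calls over all genes grew to 38% higher and 19.4% lower. The counts depended on the Ctrl mice: without Ctrl 1, 2 or 3, in that order, 8, 6 and 10 kinesins were higher and 0 lower each time. Over all genes, of 14208 to 14250 tested, 852, 681 and 1498 were then higher and 197, 137 and 426 lower. The calls that held without any 1 library were those of Kif11, Kif15, Kif18b, Kif23, Kif2c and Kif4. The calls of the 6 kinesins lower in hGFAP-Gnas, and those of Kif7, Kif24, Kif21b and Kif2a, were lost whichever 1 Ctrl library was left out, those of Kif14 and Kif18a without Ctrl 1 or 2, and those of Kif20b and Kif22 without Ctrl 2. Among libraries of the deeper class alone, which hold 2 Ctrl and 4 hGFAP-Gnas libraries with hGFAP-Gnas 1 among them, 0 were called in either direction, while the folds of the 11 division kinesins stayed above 0. Both comparisons use the same 3 Ctrl mice, so their calls are not independent of each other.

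**Figure D2:**
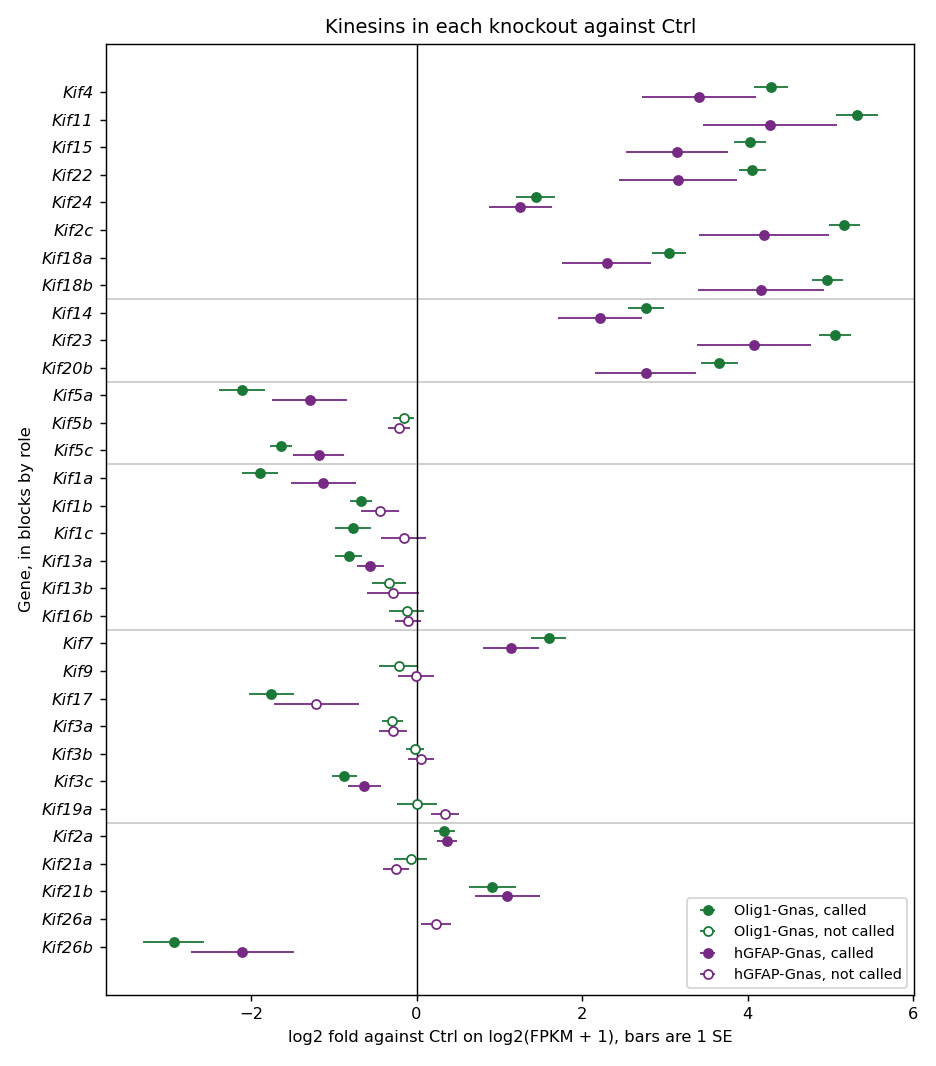
Log2 fold of each kinesin against Ctrl on the log2(FPKM + 1) scale, horizontal axis, for Olig1-Gnas and hGFAP-Gnas, with bars of 1 SE and filled points where the adjusted p was under 0.05. Genes are in blocks by role, and the 11 division kinesins at the top have positive folds in both knockouts, up to 5.32 for Kif11 in Olig1-Gnas.

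Among motors of the spindle and chromosomes, 8 of the 10 listed passed the filter, 7 of them through the knockouts. These 8 were called higher in each knockout, where 36.2% and 26.1% of all genes were. Kif11, at chr19:37450892-37496349 in mm9, encodes the motor that slides antiparallel microtubules apart to separate the spindle poles. It stood at 0.308, 0.279 and 0.197 FPKM in Ctrl 1 to 3. In Olig1-Gnas the lowest, median and highest values were 28.5, 52.0 and 79.2 FPKM. In hGFAP-Gnas they were 1.08, 31.0 and 55.3 FPKM, the lowest in hGFAP-Gnas 1 and the next at 19.7. No knockout library overlapped Ctrl, and the group means were 197-fold and 120-fold that of Ctrl (n = 3). Its log2 fold, on the scale of log2(FPKM + 1) as all folds below, was 5.32 ± 0.25 (SE, limma adjusted p = 1.17e-08) in Olig1-Gnas and 4.27 ± 0.81 (adjusted p = 0.0077) in hGFAP-Gnas, or 4.77 (adjusted p = 6.69e-07) without hGFAP-Gnas 1. In the deeper and the shallower libraries alone its fold was 5.07 and 5.60 in Olig1-Gnas, and 3.52 and 5.04 in hGFAP-Gnas. Ctrl values this low rest on few fragments, so the ratios of means are far less certain than the direction.

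Kif2c, the depolymerase at centromeres that removes faulty attachments (chr4:116832240-116855229), was listed at 0.199, 0.116 and 0.116 FPKM in Ctrl. It reached 29.6, 41.0 and 56.9 FPKM (lowest, median, highest) in Olig1-Gnas and 0.906, 27.6 and 41.6 in hGFAP-Gnas. Every knockout library lay above Ctrl, and hGFAP-Gnas 1 was again the low value, with 15.2 the next. Its log2 folds in Olig1-Gnas and hGFAP-Gnas, the order kept below, were 5.17 ± 0.19 (adjusted p = 1.78e-09) and 4.19 ± 0.78 (adjusted p = 0.00739), the latter 4.69 without hGFAP-Gnas 1. Kif2a, its close relative with a role in neurons as well as spindles, moved little: 17.3, 16.8 and 18.8 FPKM in Ctrl, a median of 23.2 in Olig1-Gnas (18.5 to 26.4) and 23.4 in hGFAP-Gnas (19.3 to 26.1). Kif2a was called higher in both, at 0.34 ± 0.13 and 0.37 ± 0.12, but not after either scaling of libraries to each other (0.17 and 0.14 in Olig1-Gnas, 0.23 and 0.19 in hGFAP-Gnas), nor in either knockout without any 1 Ctrl library or several of the knockout libraries. Those scalings, to the upper quartile or by quantiles, move the median fold of all genes from 0.22 to 0.06 and 0.06 in Olig1-Gnas and from 0.19 to 0.07 and -0.01 in hGFAP-Gnas. The ratio of Kif2c to Kif2a within a library was at most 0.0115 in Ctrl, and 1.20 to 2.28 across Olig1-Gnas and 0.0416 to 1.83 across hGFAP-Gnas.

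Kif18b and Kif18a belong to the kinesin-8 family, which acts at microtubule ends; Kif18a limits the swings of chromosomes at the metaphase plate. Kif18b was listed at 0.0835, 0.0726 and 0 FPKM in Ctrl, and at 21.6, 32.9 and 42.9 (lowest, median, highest) in Olig1-Gnas and 0.841, 26.1 and 37.3 in hGFAP-Gnas. Kif18a stood at 0.637, 0.611 and 0.639 FPKM in Ctrl, at 9.43, 12.2 and 20.5 in Olig1-Gnas and at 0.672, 9.22 and 12.7 in hGFAP-Gnas. For both genes the knockout libraries all lay above Ctrl, but hGFAP-Gnas 1 exceeded the highest Ctrl value of Kif18a by only 0.033 FPKM. Kif18b rose by a log2 fold of 4.96 ± 0.18 and 4.17 ± 0.76, and Kif18a by 3.05 ± 0.20 and 2.30 ± 0.54, in Olig1-Gnas and hGFAP-Gnas. Without hGFAP-Gnas 1 the latter were 4.64 for Kif18b and 2.62 for Kif18a. In Ctrl, Kif18a was the more abundant of these relatives, with Kif18b at 0 to 0.131 of it. In the knockouts the order was turned, at 1.65 to 3.22 across Olig1-Gnas and 1.25 to 3.02 across hGFAP-Gnas, where even hGFAP-Gnas 1 stood above 1. Both genes were under 1 FPKM in Ctrl and in hGFAP-Gnas 1, so the ratios of these libraries are uncertain.

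The chromokinesins Kif4 and Kif22, which bind chromosome arms and push them toward the metaphase plate, differed in their Ctrl level. Kif4 was listed at 0.224, 0.210 and 0.157 FPKM in Ctrl, against medians of 23.5 (15.02 to 32.1) across Olig1-Gnas and 15.03 (0.672 to 26.0) across hGFAP-Gnas. Kif22 stood at 3.41, 2.44 and 2.94 FPKM in Ctrl, the highest of the division kinesins there, against 64.2 (48.8 to 90.5) across Olig1-Gnas and 47.9 (2.91 to 64.8) across hGFAP-Gnas. All Olig1-Gnas libraries were above Ctrl for both genes, while hGFAP-Gnas 1, at 2.91 FPKM, lay within the Ctrl range of Kif22. The log2 folds of Kif22 were 4.06 ± 0.16 and 3.16 ± 0.71, and those of Kif4 were 4.28 ± 0.21 and 3.42 ± 0.69. Leaving out hGFAP-Gnas 1 gave 3.61 for Kif22 and 3.83 for Kif4. Kif22 stood at 7.70 to 11.2 times Top2a, the topoisomerase of dividing cells, in Ctrl, and at 0.330 to 0.5264 across Olig1-Gnas and 0.343 to 1.08 across hGFAP-Gnas. Kif11 stood at 0.752 to 0.897 times Top2a in Ctrl, 0.239 to 0.440 across Olig1-Gnas and 0.296 to 0.401 across hGFAP-Gnas. Top2a was at only 0.262 to 0.343 FPKM in Ctrl, so the Ctrl ratios of both genes are uncertain. Kif4b, a near-identical copy of Kif4, stayed at or under 0.506 FPKM in all libraries, and reads shared with Kif4 could have been split between them.

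Kif15, which can keep spindle poles apart alongside Kif11, was at 0.486, 0.451 and 0.394 FPKM in Ctrl. Its median was 22.9 FPKM (15.3 to 33.5) across Olig1-Gnas and 16.1 (1.13 to 22.7) across hGFAP-Gnas, with no overlap with Ctrl in either. It rose by 4.03 ± 0.19 and 3.15 ± 0.61 on the log2 scale, the latter 3.52 without hGFAP-Gnas 1. Kif24, a centriole motor that restrains cilium formation, had the lowest knockout levels of this role, with medians of 3.48 and 2.77 FPKM against 0.277, 0.323 and 1.12 in Ctrl. It rose by 1.44 ± 0.24 in Olig1-Gnas, where no library overlapped Ctrl, and by 1.25 ± 0.38 in hGFAP-Gnas, where hGFAP-Gnas 1 (0.722 FPKM) fell below Ctrl 3 and the call was lost after quantile normalization (0.89, adjusted p = 0.0913); without hGFAP-Gnas 1 the fold was 1.41.

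Of 4 motors of the central spindle and cytokinesis, 3 passed the filter, all through the knockouts. These 3 were called higher in both, where 36.2% and 26.1% of all genes were. Kif23, which with Racgap1 forms centralspindlin, the complex that bundles microtubules between separating chromosomes (chr9:61765084-61794606), was listed at 0.139, 0.2 and 0.0628 FPKM in Ctrl. Its lowest, median and highest values were 25.9, 34.5 and 52.9 FPKM in Olig1-Gnas and 1.46, 25.9 and 36.9 in hGFAP-Gnas. Every knockout library lay above Ctrl; without hGFAP-Gnas 1, the lowest of its group was 13.0. Its log2 folds were 5.06 ± 0.19 (adjusted p = 2.06e-09) and 4.08 ± 0.69 (adjusted p = 0.0064), or 4.50 without hGFAP-Gnas 1. Kif20b, a motor of late cytokinesis, rose by 3.66 ± 0.22 and 2.77 ± 0.61, from 0.348, 0.318 and 0.227 FPKM to medians of 14.1 and 11.1. Kif14, which acts with citron kinase at the midbody, rose by 2.78 ± 0.22 and 2.21 ± 0.51, from 0.105, 0.146 and 0.0354 FPKM to medians of 6.83 and 5.07. Their folds in hGFAP-Gnas without library 1 were 3.13 for Kif20b and 2.49 for Kif14. Kif20a, the relative of Kif20b, was listed at 0 in all 19 libraries, which can be a failed estimate, so no level of it is given.

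**Figure D3:**
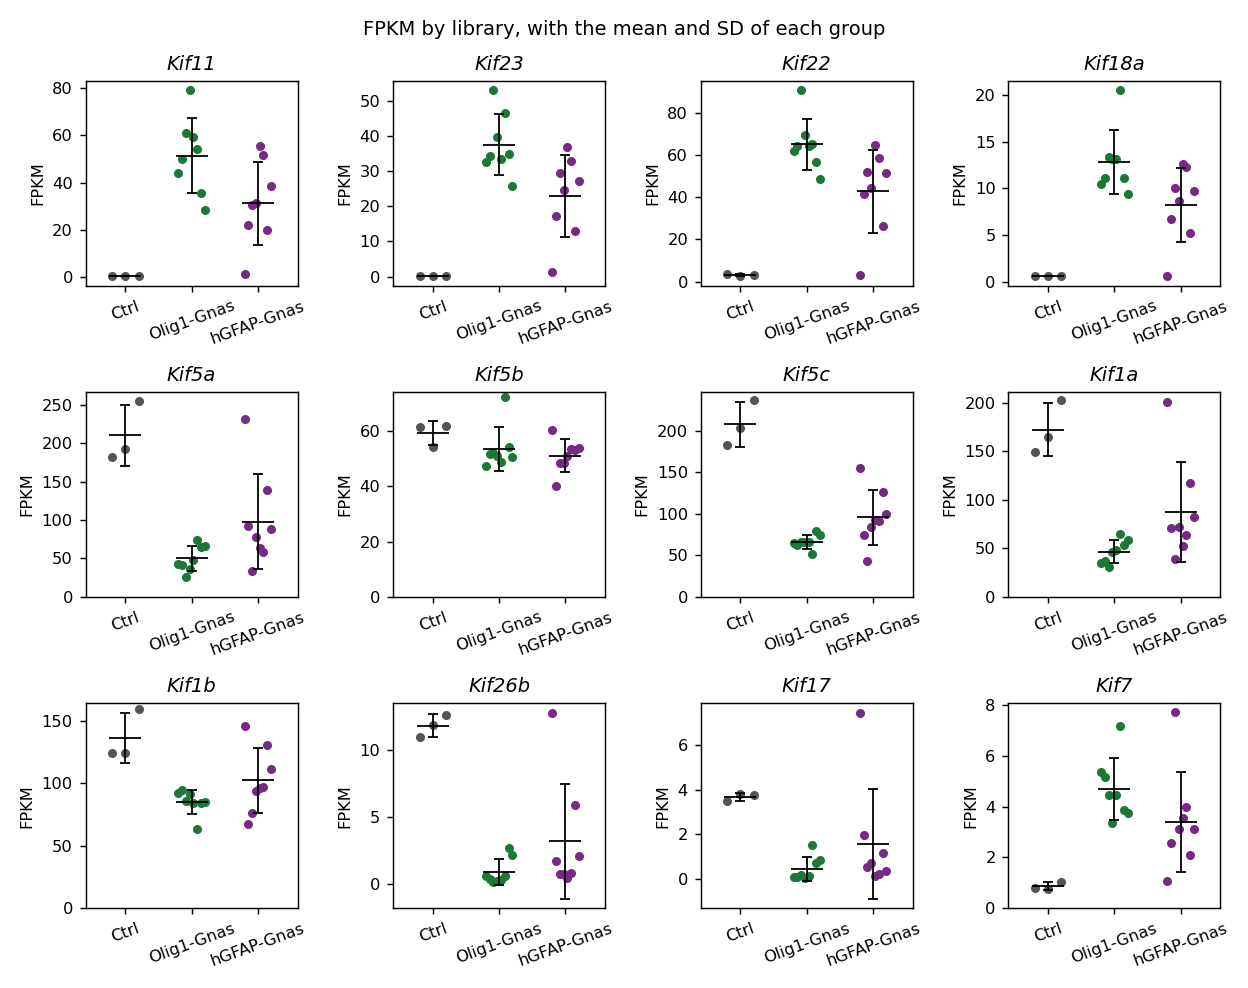
FPKM of 12 kinesins in each library (points), with the mean and SD of each group (bars), for Ctrl (n = 3), Olig1-Gnas (n = 8) and hGFAP-Gnas (n = 8). Kif11, Kif23, Kif22 and Kif18a are near 0 in Ctrl, Kif5b is level across groups, and the single point near Ctrl in the hGFAP-Gnas columns of most panels is hGFAP-Gnas 1.

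The order of the libraries was largely shared across the division kinesins. In hGFAP-Gnas, library 1 was the lowest for 11 of 11 and library 7 the second lowest for 9, while library 5 was the highest for 9. In Olig1-Gnas, library 8 was the lowest for 8 of 11 and library 6 for the other 3, while library 3 was the highest for 8. The 4 markers of dividing cells were higher in both knockouts, 4 of 4, where 36.2% and 26.1% of all genes were. Each was under 1 FPKM in all Ctrl libraries, so these markers passed the filter through the knockouts. Their summed FPKM was 293 to 675 across Olig1-Gnas and 8.47 to 472 across hGFAP-Gnas. By this sum the lowest and highest were Olig1-Gnas 8 and 3 and hGFAP-Gnas 1 and 5. Single markers differed from that: Mki67, Ccnb1 and Cdk1 were highest in Olig1-Gnas 6, Cdk1 was lowest in Olig1-Gnas 1, and Mki67 and Ccnb1 were highest in hGFAP-Gnas 6. All 3 markers of granule progenitors (Atoh1, Barhl1 and Nhlh1) were also higher in each knockout, with sums of 3.51 to 5.17 FPKM in Ctrl, 233 to 461 across Olig1-Gnas and 19.4 to 475 across hGFAP-Gnas. Of these, Atoh1 and Nhlh1 were under 1 FPKM in all Ctrl libraries and also passed the filter through the knockouts. The part of cell makeup in the kinesin levels was not tested.

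Of 15 proteins of the spindle and midzone that work with these motors, 15 were higher in both knockouts, where 36.2% and 26.1% of all genes were. Their median log2 folds were 4.59 and 3.69 (4.07 in hGFAP-Gnas without library 1, and 13, 13 and 15 called without Ctrl 1, 2 and 3). Aurkb, Birc5, Cdca8, Ckap2, Ect2, Hmmr, Kntc1, Plk1 and Tpx2 were under 1 FPKM in all Ctrl libraries. These passed the filter through the knockouts, where a higher level is in part a consequence of the filter. Birc5, of the chromosomal passenger complex, had log2 folds of 6.29 ± 0.15 and 5.12 ± 0.88. Aurkb, the kinase of the same complex, had 5.40 ± 0.14 and 4.46 ± 0.80. Cdca8, a further subunit of it, had 5.37 ± 0.19 and 4.29 ± 0.77. Motors outside the Kif numbering split the same way: Cenpe, the kinetochore kinesin, and Kifc1 and Kifc5b, near-identical minus-end motors of the spindle, were higher in both. Kifc2 and Kifc3 were lower in Olig1-Gnas and not called in hGFAP-Gnas, where Kifc2 was called lower without hGFAP-Gnas 1 (-1.87, adjusted p = 0.00901). Cenpe stood at 0.27, 0.239 and 0.266 FPKM in Ctrl and at 15.2 to 30.4 across Olig1-Gnas, far above Ctrl in all. It too passed the filter through the knockouts.

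The conventional kinesin heavy chains Kif5a, Kif5b and Kif5c form motors with light chains and carry mitochondria and vesicles along axons; Kif5a and Kif5c are the forms of neurons, and Kif5b is made in most cells. Of the 3, Kif5a and Kif5c were lower in both knockouts, where 23.6% and 12.8% of all genes were, and Kif5b was called in neither. Kif5a (chr10:126662750-126700419) stood at 182, 193 and 255 FPKM in Ctrl, the highest mean of all kinesins there. In Olig1-Gnas it was at 26.0, 45.3 and 73.4 FPKM (lowest, median, highest), all below Ctrl. In hGFAP-Gnas it was at 33.4, 82.8 and 232, where the highest, hGFAP-Gnas 1, lay within the Ctrl range and the next was 140. The folds were -2.10 ± 0.28 (adjusted p = 5.42e-05) and -1.29 ± 0.46 (adjusted p = 0.0436). Without a Ctrl library the latter had an adjusted p of 0.0993 to 0.141, it was also lost without any 1 of hGFAP-Gnas 2 to 6 or 8, and it was -1.50 (adjusted p = 0.0036) without hGFAP-Gnas 1. In the deeper and the shallower libraries alone the fold of Kif5a was -1.57 and -2.79 in Olig1-Gnas, and -1.11 and -1.62 in hGFAP-Gnas.

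Kif5c (chr2:49474833-49630298) stood at 182, 204 and 237 FPKM in Ctrl. It reached 51.5, 65.7 and 79.0 FPKM in Olig1-Gnas and 43.6, 91.5 and 155 in hGFAP-Gnas, all below Ctrl in both. Its log2 fold was -1.64 ± 0.13 (adjusted p = 8.75e-07) and -1.18 ± 0.31 (adjusted p = 0.0162, and 0.0566 to 0.0663 without a Ctrl library). Without hGFAP-Gnas 1 the latter was -1.29 (adjusted p = 0.00191). Kif5b was at 61.6, 54.4 and 61.9 FPKM in Ctrl, with medians of 51.4 (47.2 to 72.5) across Olig1-Gnas and 52.1 (40.2 to 60.5) across hGFAP-Gnas. Its log2 fold was -0.15 (95% interval -0.43 to 0.13) and -0.21 (-0.50 to 0.08), and in Olig1-Gnas it was called lower after either scaling (-0.33 and -0.34) or without Olig1-Gnas 6 (-0.22). The ratio of Kif5a to Kif5b within a library, which needs no scaling between libraries, was 2.96 to 4.12 in Ctrl, 0.5001 to 1.32 across Olig1-Gnas and 0.688 to 3.83 across hGFAP-Gnas. That of Kif5c to Kif5b was 2.96 to 3.82, 0.7101 to 1.48 and 0.899 to 2.56. Neither ratio in Olig1-Gnas overlapped Ctrl, and in hGFAP-Gnas only that of Kif5a did, through hGFAP-Gnas 1.

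**Figure D4:**
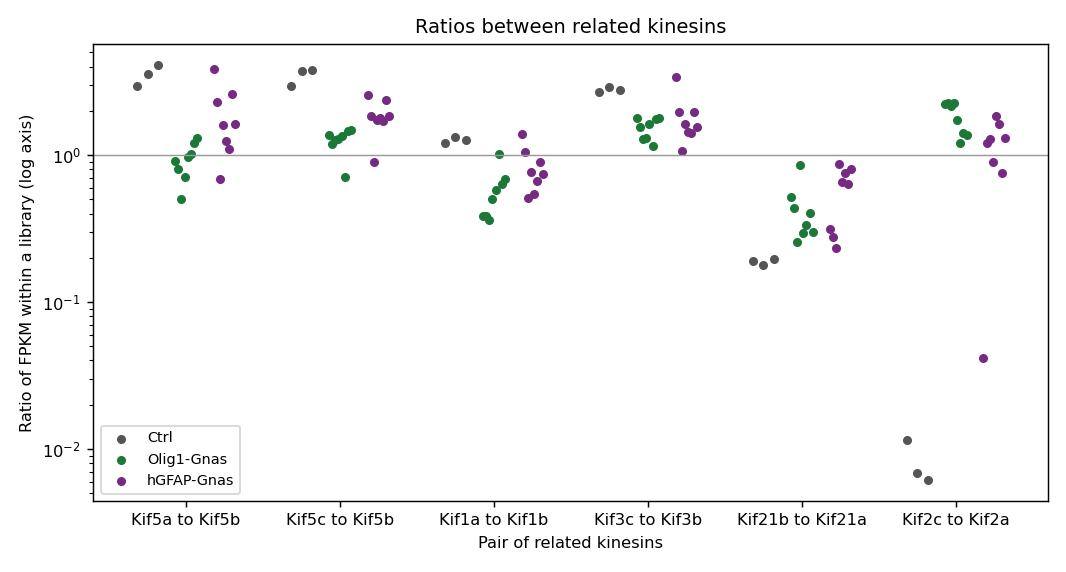
Ratio of FPKM between related kinesins within each library (log axis), for 6 pairs and the 3 groups. Ratios of a neuronal form to its relative (Kif5a and Kif5c to Kif5b, Kif1a to Kif1b, Kif3c to Kif3b) are lower in most knockout libraries than in Ctrl, and Kif2c to Kif2a is higher in all, at most 0.0115 in Ctrl and at least 0.0416 in the knockouts.

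Among 6 motors of vesicles and organelles, 4 were lower in Olig1-Gnas, 2 of them also in hGFAP-Gnas, and 0 were higher. Over all genes, 23.6% were lower and 36.2% higher in Olig1-Gnas, and 12.8% lower and 26.1% higher in hGFAP-Gnas. Kif1a, which carries synaptic vesicle precursors (chr1:94912032-94998442), was at 150, 165 and 203 FPKM in Ctrl. Its lowest, median and highest values were 30.9, 47.2 and 64.4 FPKM in Olig1-Gnas, all below Ctrl, and 39.1, 71.8 and 201 in hGFAP-Gnas, of which hGFAP-Gnas 1 lay within the Ctrl range. It fell with folds of -1.89 ± 0.21 (adjusted p = 1.65e-05) and -1.13 ± 0.40 (adjusted p = 0.0434). The call in hGFAP-Gnas was lost without a Ctrl library (0.0963 to 0.139), without any 1 of hGFAP-Gnas 2 to 6 or 8 and after quantile normalization (0.0519), while without hGFAP-Gnas 1 the fold was -1.32 (adjusted p = 0.00212). Kif1b, whose forms carry mitochondria and synaptic vesicle precursors, was at 124, 125 and 160 FPKM in Ctrl, at a median of 85.4 (63.6 to 94.5) in Olig1-Gnas and of 96.9 (67.7 to 146) in hGFAP-Gnas. It fell by 0.67 on the log2 scale in Olig1-Gnas and was not called in hGFAP-Gnas (-0.44 ± 0.23, adjusted p = 0.14), where it was called without hGFAP-Gnas 1 (-0.52, adjusted p = 0.0418). Kif1a to Kif1b was 1.20 to 1.32 in Ctrl, 0.3604 to 1.01 across Olig1-Gnas and 0.514 to 1.38 across hGFAP-Gnas, so these relatives were not lowered in equal measure in Olig1-Gnas.

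Kif1c, of the same family and found in many cell types, stood at 19.7, 20.6 and 23.5 FPKM in Ctrl and at 7.23 to 16.6 in Olig1-Gnas, all below Ctrl. It spread from 10.2 to 28.8 FPKM in hGFAP-Gnas, on both sides of Ctrl. It fell by 0.77 on the log2 scale in Olig1-Gnas, not called in the deeper (-0.48) or the shallower libraries alone (-1.13), and was at -0.16 ± 0.27 (adjusted p = 0.663) in hGFAP-Gnas; between the knockouts its difference was 0.62 (95% interval 0.18 to 1.05), with an adjusted p of 0.152. Kif13a, which carries endosomes, was at 21.0, 17.9 and 17.4 FPKM in Ctrl and below that in all knockout libraries, with folds of -0.82 ± 0.16 and -0.56 ± 0.17 (adjusted p = 0.0241, 0.062 to 0.108 without a Ctrl library, and 0.0129 without hGFAP-Gnas 1). Kif13b, a transporter of membrane scaffolds, and Kif16b, of early endosomes, were called in neither knockout, with folds of -0.33 and -0.12 in Olig1-Gnas and -0.28 and -0.10 in hGFAP-Gnas. Kif13b was called lower in Olig1-Gnas after quantile scaling (-0.48).

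Partners of the transport motors moved unevenly. Over all genes, 36.2% were higher and 23.6% lower in Olig1-Gnas, and 26.1% higher and 12.8% lower in hGFAP-Gnas. Of 5 light chains and the kinesin-2 subunit KAP3, 3 were lower in both knockouts: Klc2 (log2 fold -2.32 ± 0.26 and -1.58 ± 0.50), Klc1 (-1.10 ± 0.18 and -0.72 ± 0.23) and Kifap3, which encodes KAP3 (-1.09 ± 0.16 and -0.69 ± 0.18). Klc3 and Klc4 were not called. Of 14 cargo adaptors, 8 were lower and 2 higher in Olig1-Gnas, and 5 were lower and 1 higher in hGFAP-Gnas. The largest called folds of adaptors in Olig1-Gnas were those of Lin7a (-2.98 ± 0.59), Madd (-2.94 ± 1.05), which is listed at 0 in Olig1-Gnas 7 and 8 and so may be a failed estimate there, and Apba1 (-2.25 ± 0.31). Of 13 subunits and cofactors of dynein and dynactin, the motor of the opposite direction, 5 were lower and 2 higher in Olig1-Gnas and 1 was lower and 1 higher in hGFAP-Gnas. Without hGFAP-Gnas 1, the counts in hGFAP-Gnas were 3 lower of the light chains and KAP3, 6 lower and 2 higher of the adaptors and 4 lower and 2 higher of the dynein list. Of all genes, 38% were then higher and 19.4% lower. Dync1i1, the intermediate chain of neurons, fell by 3.79 and 2.71 on the log2 scale, and Nde1, a dynein cofactor of dividing progenitors, rose by 2.004 ± 0.14 and 1.54 ± 0.32.

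Markers of mature neurons moved with the transport kinesins, where 23.6% of all genes were lower in Olig1-Gnas and 12.8% in hGFAP-Gnas. All 4 of granule neurons (Gabra6, Cbln3, Slc17a7 and Rbfox3) were lower in Olig1-Gnas and 3 of 4 in hGFAP-Gnas. Their summed FPKM was 979 to 1312 in Ctrl, 37.4 to 297 across Olig1-Gnas, where Gabra6 was at 0 in Olig1-Gnas 4, and 87.4 to 885 across hGFAP-Gnas, highest in hGFAP-Gnas 1. The 3 markers of Purkinje cells (Calb1, Pcp2 and Car8) summed to 941 to 1796 FPKM in Ctrl, 1.02 to 320 across Olig1-Gnas and 39.9 to 913 across hGFAP-Gnas. All 3 were lower in Olig1-Gnas and 2 in hGFAP-Gnas, and Pcp2 was at 0 in Olig1-Gnas 2 and 4. The 3 of inhibitory interneurons (Gad1, Slc32a1 and Pvalb) were lower in both, with sums of 929 to 1295 FPKM in Ctrl, 12.6 to 360 and 40.6 to 706. Of 3 markers of astrocytes and Bergmann glia, Gfap was higher in both, Aldoc lower in both and Gdf10 lower in Olig1-Gnas, with sums of 1396 to 2197 FPKM in Ctrl, 70.5 to 923 and 433 to 2067. In hGFAP-Gnas without library 1, all 4 granule neuron, 3 Purkinje and 3 interneuron markers were lower, as were Aldoc and Gdf10. Without any 1 Ctrl library, 0 of these markers, and 0 of the light chains, adaptors and dynein subunits above, were called lower in hGFAP-Gnas. Of the 9 kinesins lower in Olig1-Gnas, hGFAP-Gnas 1 was the highest of its group for 8, and hGFAP-Gnas 7 the second highest for 7. The part of these cells in the kinesin levels was not tested.

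The motors of the cilium did not move as a set. Of 7, 1 was higher and 2 lower in Olig1-Gnas, where 36.2% of all genes were higher and 23.6% lower. In hGFAP-Gnas 1 was higher and 1 lower, where 26.1% and 12.8% of all genes were. Kif7, the kinesin at the cilium tip through which hedgehog signals reach the Gli factors (chr7:86805081-86859072), rose. It was at 0.780, 0.7499 and 1.04 FPKM in Ctrl, at 3.35, 4.46 and 7.18 (lowest, median, highest) in Olig1-Gnas and at 1.06, 3.12 and 7.73 in hGFAP-Gnas. No knockout library overlapped Ctrl, though hGFAP-Gnas 1, at 1.06, stood next to Ctrl 3. Kif7 reached 1 FPKM in 1 Ctrl library and in all 8 libraries of each knockout. Like Kif24 it passed the filter through the knockouts, where a higher level is in part a consequence of the filter. The folds of Kif7 were 1.60 ± 0.21 (adjusted p = 4.57e-05) and 1.14 ± 0.34 (adjusted p = 0.0244), the latter 1.28 (adjusted p = 0.00232) without hGFAP-Gnas 1 and not called without a Ctrl library (0.0652 to 0.087) or after quantile normalization (0.81, adjusted p = 0.076). Kif27, the relative of Kif7, passed 1 FPKM in 1 library only, hGFAP-Gnas 7.

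The kinesin-2 motors Kif3a and Kif3b, which with KAP3 carry cargo along the cilium, were called in neither knockout, while Kif3c, a partner of Kif3a found mostly in neurons, fell in both. Kif3c was at 46.4, 47.3 and 49.6 FPKM in Ctrl and below that in all knockout libraries, at 18.8, 26.5 and 30.5 in Olig1-Gnas and 19.7, 29.9 and 45.8 in hGFAP-Gnas. Its folds were -0.87 ± 0.15 (adjusted p = 0.000395) and -0.63 ± 0.20 (adjusted p = 0.0306, and 0.0885 to 0.0965 without a Ctrl library, also lost without hGFAP-Gnas 4 or 5), and the latter was -0.71 (adjusted p = 0.0033) without hGFAP-Gnas 1. Kif3b stood at 17.3, 16.3 and 17.8 FPKM in Ctrl and at 13.8 to 18.6 and 13.5 to 21.2 in the knockouts, with 95% intervals of its log2 fold from -0.26 to 0.22 and from -0.29 to 0.40. Kif3a had folds of -0.29 ± 0.13 (adjusted p = 0.061) and -0.28 ± 0.17 (adjusted p = 0.191). After either scaling, and without Olig1-Gnas 6 or 8, Kif3a was called lower in Olig1-Gnas, at -0.47 in both scalings.

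Kif17, a kinesin-2 of dendrites and cilia, was at 3.49, 3.80 and 3.76 FPKM in Ctrl. It reached 1 FPKM in 3 Ctrl libraries and 1 Olig1-Gnas library, so in that comparison it passed the filter through Ctrl. In Olig1-Gnas it ranged from 0.0770 to 1.51 with a median of 0.166, all below Ctrl, and its log2 fold was -1.75 ± 0.27 (adjusted p = 0.000177). In hGFAP-Gnas it ranged from 0.164 to 1.98 in libraries 2 to 8, all below Ctrl, and stood at 7.45 in hGFAP-Gnas 1, above Ctrl. With that library Kif17 was not called (-1.21 ± 0.51, adjusted p = 0.078), and without it the fold was -1.50 (adjusted p = 0.000901). With that library kept, Kif17 was called lower after quantile normalization (-1.47, adjusted p = 0.049) and in 1 fit over all 19 libraries (-1.21, adjusted p = 0.0378). Kif9 and Kif19a, of motile cilia, stayed at or under 2.41 FPKM in every library and were not called in either knockout. The 2 tested markers of ependymal cells and choroid plexus, Ttr and Foxj1, were uneven among libraries: Ttr ranged from 0.184 to 1195 FPKM in Ctrl, from 0.123 to 2317 in Olig1-Gnas and from 0.152 to 863 in hGFAP-Gnas, and was called in neither. Foxj1, the regulator of motile cilia, was higher in hGFAP-Gnas (1.29 ± 0.36, not called without Ctrl 1 or 2) and at -0.11 ± 0.48 in Olig1-Gnas.

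Of the remaining kinesins, Kif26b, a non-motile member linked to adhesion and cell polarity (chr1:180459255-180862988), had the largest fall. It was at 10.9, 11.9 and 12.6 FPKM in Ctrl, at 0.122, 0.435 and 2.69 (lowest, median, highest) in Olig1-Gnas and at 0.450, 1.26 and 12.8 in hGFAP-Gnas. It reached 1 FPKM in 3 Ctrl and 2 Olig1-Gnas libraries, so in that comparison it passed the filter through Ctrl. All Olig1-Gnas libraries were below Ctrl; in hGFAP-Gnas the highest value was again library 1, above Ctrl, with library 7 next at 5.90. Its log2 folds were -2.94 ± 0.37 (adjusted p = 3.51e-05) and -2.11 ± 0.62 (adjusted p = 0.024, 0.000658 without hGFAP-Gnas 1 and 0.0762 to 0.0795 without a Ctrl library). Kif21b, which limits microtubule growth and is found in neurons and immune cells, went the other way. It was at 7.199, 7.16 and 9.30 FPKM in Ctrl, at a median of 15.6 (8.36 to 31.8) in Olig1-Gnas and of 22.0 (7.30 to 32.9) in hGFAP-Gnas, with overlap in both. It rose by 0.92 ± 0.28 (adjusted p = 0.0146) and 1.10 ± 0.39 (adjusted p = 0.0457). The call in Olig1-Gnas was lost without Ctrl 1 or 2 (0.0572 and 0.0581) and in the deeper or the shallower libraries alone (0.068 and 0.141). In hGFAP-Gnas it was lost without any 1 Ctrl library, without any 1 of hGFAP-Gnas 4 to 8, in the deeper libraries alone and after either scaling. The 3 markers of microglia (Cd68, C1qb and Aif1) were higher in both, where 36.2% and 26.1% of all genes were. In hGFAP-Gnas, 2 of 3 were called without Ctrl 1 or Ctrl 2, and Aif1 lay within the Ctrl range in hGFAP-Gnas 1 (1.77 FPKM). The marker sums were 19.5 to 29.6 FPKM in Ctrl, 222 to 818 across Olig1-Gnas and 47.9 to 453 across hGFAP-Gnas. The part of microglia in Kif21b was not tested.

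Kif21a, the relative of Kif21b in growth cones and axons, was called in neither, with folds of -0.07 (95% interval -0.51 to 0.37) and -0.25 (-0.59 to 0.09). Kif21b stood at 0.179 to 0.197 of Kif21a in Ctrl, 0.256 to 0.855 across Olig1-Gnas and 0.232 to 0.874 across hGFAP-Gnas, above Ctrl in all knockout libraries. Kif26a, which acts in the enteric nervous system, passed the level of 1 FPKM in only 3 libraries, all hGFAP-Gnas, was not tested in Olig1-Gnas and was not called in hGFAP-Gnas (0.23 ± 0.18). With 3 libraries it is the member nearest to the threshold, followed by Kif17 with 7, Kif9 with 8 and Kif26b with 9. Outside it were Kif27 with 1 library and Kif6, Kif4b, Kif2b, Kif12 and Kif20a with 0, of which Kif6 reached 0.976 FPKM.

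Set against each other within libraries, the kinesins changed in makeup more than in total. The 32 genes summed to 947 to 1195 FPKM in Ctrl, 764 to 883 across Olig1-Gnas and 670 to 1048 across hGFAP-Gnas. The 11 kinesins of division made up 0.4928 to 0.657% of that sum in Ctrl, 28.1 to 47.0% across Olig1-Gnas (median 38.5%) and 1.08 to 36.3% across hGFAP-Gnas (median 26.2%). The Kif5 chains made up 45.0 to 46.3% in Ctrl, 16.3 to 25.2% across Olig1-Gnas and 18.2 to 42.6% across hGFAP-Gnas, and Kif1a, Kif1b and Kif1c together 31.0 to 32.3%, 14.0 to 20.5% and 17.9 to 35.9%. By group mean, Kif5a, Kif5c, Kif1a and Kif1b were the first 4 in Ctrl. In Olig1-Gnas, Kif1b was first, Kif22 had rank 3 at 65.1 ± 12.1 FPKM (SD, n = 8) and Kif11 rank 5 at 51.5 ± 15.9, next to Kif5a at 50.05 ± 16.7. The means of Kif11 and Kif5a there differ by far less than their spread between mice. In hGFAP-Gnas, Kif1b (102 ± 26.3), Kif5a (98.1 ± 62.1), Kif5c (95.7 ± 33.4) and Kif1a (87.7 ± 51.5) came first, within the spread of each other, and Kif22 had rank 6.

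**Figure D5:**
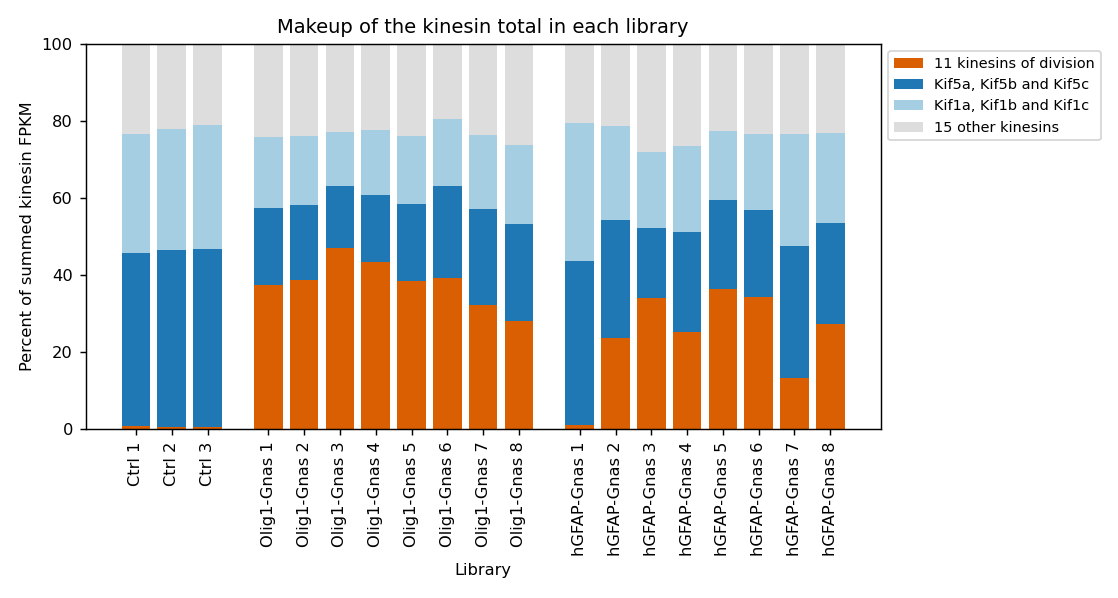
Percent of the summed FPKM of the 32 kinesins that came from the 11 division kinesins, from Kif5a, Kif5b and Kif5c, from Kif1a, Kif1b and Kif1c and from the 15 others, as stacked bars, 1 for each library. The division share is under 1% in Ctrl, between 28.1 and 47.0% in Olig1-Gnas and from 1.08% in hGFAP-Gnas 1 to 36.3% in hGFAP-Gnas 5.

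Between the knockouts, 0 of 32 kinesins were called by limma in either direction (0.41% of all 14386 genes were, 0.264% higher and 0.146% lower in hGFAP-Gnas), 9 had an unadjusted p under 0.05, and the smallest adjusted p was 0.152, that of Kif1c. All libraries of a knockout lay above those of the other for 0 kinesins, against 0.292% and 0.306% of all genes. All 11 division kinesins had lower mean values in hGFAP-Gnas, with log2 differences from -1.05 to -0.19, or -0.56 to -0.03 without hGFAP-Gnas 1. That of Kif11 had a 95% interval from -2.15 to 0.04, which leaves room for a difference of more than 2-fold and for none, and it was -0.55 without hGFAP-Gnas 1. Kif5a was 0.82 higher in hGFAP-Gnas (0.15 to 1.48), and 0.61 without hGFAP-Gnas 1, Kif1a 0.77 (0.20 to 1.33), and 0.57 without it, and Kif5b differed by -0.06 (-0.28 to 0.16). Kif17, Kif1b and Kif1c, called lower in Olig1-Gnas and not in hGFAP-Gnas, were not shown to differ between the knockouts, with adjusted p-values of 0.333, 0.327 and 0.152.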

How the data were processed

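RNA-seq of cerebellum from 19 mice was deposited as tables of FPKM per gene, 1 for each knockout, both with the same 3 Ctrl mice. The authors made the FPKM values with TopHat and Cufflinks on mm9, per the submitters' processing notes, and the versions are not given in the sources used here. No unit is named in the tables, and FPKM was inferred from the use of Cufflinks and the range of the values. Rows without a gene (43342 in each table) were left out. Ctrl 1 differed between the tables for 9 members, by at most 0.0097 FPKM, so Ctrl was taken from the table of the knockout it was compared with.

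Levels were tested as log2(FPKM + 1) with limma 3.58.1 (R 4.3.3, trend and robust), over genes with at least 1 FPKM in 3 libraries of the comparison, with Benjamini-Hochberg adjustment over all genes and a threshold of 0.05. The code was tested on simulated data. Tables were handled in Python 3.11.15 with pandas 2.3.3 and numpy 2.4.6 and plotted with matplotlib 3.10.9. FPKM gives no count of reads, so no counting interval is given. Loci are those deposited (mm9), and promoters are RefSeq windows of GRCm38.p6.

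The members, roles, partner and marker lists were chosen with earlier results of these data known. Every member is named; values are in full for the members of each role with the largest folds, their close relatives and Kif7, and for partners up to 3 called genes a list. Alternatives were another offset (0.1), no filter or 5 FPKM, upper quartile and quantile scaling, plain moderation, zeros as missing, a replicate block, 1 fit over all libraries, each depth class, a 2-fold threshold and leaving out each library.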

Additional observations from a re-analysis of the deposited data

Results flagged for a closer look

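In each knockout group of 8, the highest or lowest library was set against the range of its group for each of the 32 kinesins, which made 64 groups of values. In 9 of them 1 library stood apart by more than Dixon's 95% criterion allows. For independent and normally distributed values this happens in about 1 in 20 groups. The 64 groups share the same libraries and hold untransformed FPKM, so the 9 cannot be read as an excess over that rate. Kif17 was at 7.447 FPKM in hGFAP-Gnas 1, with the next at 1.975, and Kif26b at 12.78 in the same library, with the next at 5.898. Kif7 was at 7.729 FPKM in hGFAP-Gnas 3, against 3.981 in the next. In hGFAP-Gnas 7, the ciliary motors Kif19a and Kif9 stood at 2.412 and 1.896 FPKM, against 1.759 and 1.048. Olig1-Gnas 6 held 3 of these values: Kif18a at 20.47 FPKM (next 13.33), Kif5b at 72.52 (next 54.27) and Kif1b, the low one, at 63.56 (next 84.04). Kif21b was at 31.8 FPKM in Olig1-Gnas 4, with the next at 17.29.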

How the results depend on the processing

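Of the 23 kinesins called in Olig1-Gnas, 17 kept their call in every alternative that tested them, and 21 without any 1 library. Not all of these were tested throughout. Kif7, Kif14, Kif17 and Kif24 did not pass the filter of 5 FPKM in Olig1-Gnas against Ctrl. Kif17 and Kif26b were not tested there in the shallower libraries alone. Of the 20 called in hGFAP-Gnas, 0 kept their call in all alternatives and 6 without any 1 library. No called direction was reversed. The 9 lower kinesins in Olig1-Gnas became 5 in the shallower libraries alone and 5 with a 2-fold threshold. The 14 higher in hGFAP-Gnas became 2 with a filter of 5 FPKM in all libraries of a group, which fewer members pass, 0 in the deeper libraries alone and 0 with the replicate block. The 6 lower became 0 in the deeper libraries, 1 in the shallower and 0 with the replicate block. Leaving out 1 library gave 6 to 14 higher and 0 to 8 lower in hGFAP-Gnas (8, 6 and 10 higher and 0 lower without Ctrl 1, 2 and 3; 3 lower without hGFAP-Gnas 4 or 5; 8 lower without hGFAP-Gnas 1), against 12 to 14 and 9 to 11 in Olig1-Gnas. Same-numbered libraries of the groups varied together weakly or not at all (correlations of -0.178 to 0.254), and no pairing by number was assumed. With so few libraries such correlations cannot exclude a pairing. The replicate block left 13 higher and 9 lower kinesins in Olig1-Gnas, and over all genes in hGFAP-Gnas it left 0 in either direction, against 6 higher and 0 lower in the deeper libraries. Between the knockouts, 0 kinesins were called in all alternatives. The causes of these losses were not tested. Fewer libraries entered the fits within a depth class and those without 1 library, while the replicate block and the filters kept all of them. Depth in reads is unknown, so Ctrl values of the division kinesins well under 1 FPKM carry an unstated counting error, which limits the size of their folds.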
